A study of Mus musculus with 20 samples.

Results

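Integrins, laminins and the proteins that tie laminins into basement membranes were measured by RNA sequencing in brain tissue of aged mice after stroke. The members were all protein-coding genes of the mouse annotation whose symbols name an integrin alpha or beta subunit or a laminin alpha, beta or gamma chain, together with Nid1, Nid2, Hspg2 and Agrn and without Itgax, which gave 40 of the 46078 genes in the tables. They comprised 7 leukocyte integrins, 18 matrix-binding integrins and 15 laminins and linkers. The rule uses symbols and no measured value, although the gene families were picked with earlier results of these data known.

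The mice were male C57BL/6J wild-type animals aged 18 months that had undergone DH stroke, in which occlusion of a distal cerebral artery is combined with hypoxia. From week 1 after stroke they were injected subcutaneously 3 times per week for 6 weeks with vehicle (PBS) or with 4 g/kg 2-hydroxypropyl-β-cyclodextrin (HPBCD), a sugar ring that carries cholesterol, and tissue was taken at 7 weeks. Peri-infarct tissue, dissected after the infarct had been removed, and the matching contralateral region were each represented by 5 libraries per treatment. All 4 groups therefore carried a stroke, and the contralateral tissue came from the uninjured hemisphere of stroked mice. Libraries held 14445021 to 22171627 gene counts, with a median of 19008532.

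Integrins are receptors of 1 alpha and 1 beta subunit that bind matrix proteins or ligands on other cells and couple them to the actin cytoskeleton. Laminins are trimers of an alpha, a beta and a gamma chain, which polymerize into basement membranes where nidogens, perlecan (Hspg2) and agrin join them to type IV collagen and to the cell surface. In the brain such membranes surround vessels and lie beneath the pia, while integrins with the Itgb2 subunit are carried by microglia and infiltrating leukocytes.

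The treatment labels were checked with genes that the study's text names for the response to HPBCD in this tissue. The list held 33 genes, of which 32 were tested. In the libraries as labelled, 0 of the 32 moved in the listed direction and 18 were called the other way, so HPBCD and vehicle below mean the libraries labelled so, and every comparison between treatments or within one, and the interaction, rests on those labels. Whether the treatment labels of the peri-infarct libraries were exchanged was not tested. Such an exchange would turn every direction between treatments beside the infarct and would change the region comparisons within a treatment and the interaction. Cell type markers showed that 1 vehicle contralateral library (replicate 1) had a summed striatal neuron marker level of 2060 CPM, against 123 to 192 CPM in the other vehicle contralateral libraries. The choroid plexus transcript Ttr was at 575 CPM in HPBCD contralateral replicate 3 and at 566, 140 and 120 CPM in HPBCD peri-infarct replicates 3, 2 and 4, against at most 44.7 CPM in the other 16 libraries. In bulk tissue, fewer cells of a type and less RNA per cell cannot be told apart.

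For the transcripts that results below turn on, 5 upstream windows are shown, because these genes either rose beside the infarct in HPBCD (Itgam, Itgb5, Nid1, Hspg2) or fell there (Itgav). They come from RefSeq on GRCm38.p6, run 5′ to 3′ to the base before the start of transcription, and were trimmed where they met an annotated exon. Capitals mark GAGGAAG, a core recognized by the myeloid factor PU.1, or GGGCGG, the GC box, each in either orientation. Itgam and Nid1 hold both motifs and the GC boxes of Itgb5 and Hspg2 are repeated, while the match in Itgav lies close to its start.
Itgam (chr7:128062390-128062639, plus strand): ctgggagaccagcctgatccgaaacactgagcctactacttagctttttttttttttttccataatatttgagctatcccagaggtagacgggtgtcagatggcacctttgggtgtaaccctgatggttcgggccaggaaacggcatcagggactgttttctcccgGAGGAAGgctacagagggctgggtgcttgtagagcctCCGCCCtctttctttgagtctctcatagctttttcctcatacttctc
Itgb5 (chr16:33829415-33829664, plus strand): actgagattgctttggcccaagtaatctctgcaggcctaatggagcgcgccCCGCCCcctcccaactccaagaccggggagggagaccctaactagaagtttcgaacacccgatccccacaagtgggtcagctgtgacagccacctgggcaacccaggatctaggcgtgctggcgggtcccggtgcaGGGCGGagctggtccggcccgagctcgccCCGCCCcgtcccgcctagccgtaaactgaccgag
Itgav (chr2:83724147-83724396, plus strand): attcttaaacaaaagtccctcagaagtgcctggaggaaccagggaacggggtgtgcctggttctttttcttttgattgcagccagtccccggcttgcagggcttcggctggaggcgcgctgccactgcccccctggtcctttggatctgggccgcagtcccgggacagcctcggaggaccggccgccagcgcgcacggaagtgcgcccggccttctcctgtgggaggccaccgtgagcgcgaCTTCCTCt
Nid1 (chr13:13437352-13437550, plus strand): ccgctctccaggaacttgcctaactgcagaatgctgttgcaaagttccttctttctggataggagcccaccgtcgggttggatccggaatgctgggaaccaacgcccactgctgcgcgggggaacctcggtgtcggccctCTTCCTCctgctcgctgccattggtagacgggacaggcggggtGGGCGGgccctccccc
Hspg2 (chr4:137468553-137468768, plus strand): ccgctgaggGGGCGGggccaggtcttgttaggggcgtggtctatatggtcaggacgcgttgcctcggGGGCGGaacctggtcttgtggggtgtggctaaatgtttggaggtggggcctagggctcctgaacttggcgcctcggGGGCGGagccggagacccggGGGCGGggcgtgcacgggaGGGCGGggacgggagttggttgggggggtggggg

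Of the 40 members, 25 had a RefSeq window, 29 windows in all with 250 bases each before trimming. GAGGAAG was present in 8 of these 29 windows (27.6%), against 10.6% of 32851 windows of the same length over all genes. GGGCGG was found in 13 (44.8%), against 32.7%. TGANTCA, the site of AP-1, was found in 0, against 6.75%. A match describes the sequence and shows no binding.

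Across the 20 libraries, 36 members had a mean of at least 1 CPM (counts scaled to a common library total with TMM factors), and Itgad, Itgae, Itga2 and Itgb6 lay below that level. Levels of different genes were compared per kilobase of exon. On that scale Itgb5 (26.4 CPM per kilobase) and Itgb1 (26.3) were highest, followed by Agrn (12), Lamb2 (11.7), Itgav (11.3), Itgb2 (8.83) and Itgam (8.71). Itgb6, which pairs with Itgav in epithelia, was lowest at 0.00614 CPM per kilobase.

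Tissue beside the infarct was first set against the contralateral region within each treatment. In vehicle, 10 of 36 tested members passed the test, 9 higher and 1 lower, beside 20.2% of all 15801 genes tested (10.5% higher, 9.7% lower; edgeR quasi-likelihood F test, Benjamini-Hochberg adjusted p under 0.05). In HPBCD, 28 of 36 members passed, 26 higher and 2 lower, beside 54.6% of 16047 genes (30.3% higher, 24.3% lower). The median log2 difference of the members was 0.36 in vehicle and 1.33 in HPBCD, and the median of all genes was 0.01 and 0.03. Groups did not overlap for 5 members in vehicle, all higher, and for 28 tested members in HPBCD, beside 13.4% and 42.5% of all genes.

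Treatments were then compared within each region, and these comparisons share libraries with the ones above. Beside the infarct 15 of 37 tested members passed, 14 higher and 1 lower in HPBCD, beside 21.4% of 16224 genes (12.4% higher, 9% lower). In contralateral tissue 0 of 35 members and 0% of 15469 genes passed in edgeR. At an unadjusted p under 0.05 there were 1224 genes and 1 member, DESeq2 called 51 genes and limma voom 0, and neither called a member. The region difference itself was larger in HPBCD than in vehicle for 11 of 37 members by the interaction term, which called 9.41% of 16758 genes (5.03% higher, 4.38% lower). Counts of classes, lists and markers below are to be read beside these shares of all genes. The plot of region differences shows the members of each class with their errors.

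**Figure D1:**
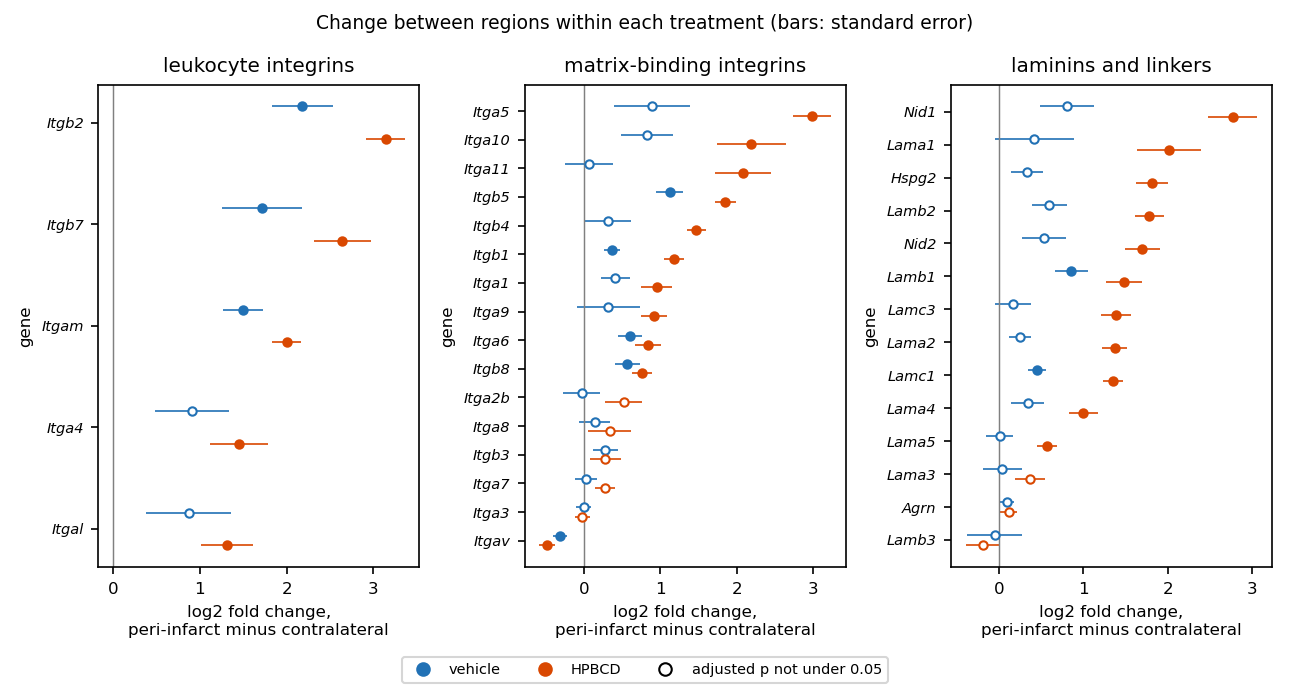
Log2 fold change between peri-infarct and contralateral tissue for 35 of the 36 tested members, in vehicle (blue) and HPBCD (orange), with standard errors; open circles did not pass the adjusted p threshold of 0.05. More members passed in HPBCD than in vehicle, where 10 did, beside 54.6% and 20.2% of all genes tested. Itgav is the member that passed as lower in both.

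Leukocyte integrins were higher beside the infarct for 5 of the 7 members in HPBCD and 3 in vehicle. In vehicle 3 of 5 tested members passed and in HPBCD 5 of 5, each higher, with median log2 differences of 1.5 and 2. Between treatments 0 of 6 passed beside the infarct, where the median log2 difference was 0.57, and 0 of 6 passed the interaction. Without vehicle peri-infarct replicate 3, 3 passed between treatments and 2 by the interaction, among them Itgam (adjusted p = 0.0319 and 0.0401) and Itgb2 (0.0243 and 0.0196). Itgb7 passed between treatments in DESeq2 (adjusted p = 0.0446) and without HPBCD peri-infarct replicate 2 (0.0328). Itgad and Itgae, the others of the 7, were at most 1.05 CPM in each of the 20 libraries, and Itgae could be tested between treatments (log2 1.10 ± 0.40, edgeR adjusted p = 0.0669) and by the interaction (log2 1.61), where it did not pass. Itgae passed between treatments in limma voom (adjusted p = 0.0173) and without replicate 3 of the vehicle or 2 of the HPBCD peri-infarct libraries (0.0289 and 0.026). It also passed with a block on the replicate number (adjusted p = 0.041), but that number is only a name between treatments. The interaction of Itgae passed in limma voom (log2 3.01, adjusted p = 0.0091).

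Itgam (chr7:128062640-128118491) encodes CD11b, the alpha subunit of complement receptor 3 on microglia and myeloid cells. Itgam measured 19.1, 18.9, 20.4, 21 and 19.5 CPM in vehicle contralateral and 47.3, 31.1, 93.8, 58.3 and 51.6 CPM in vehicle peri-infarct tissue. Itgam then measured 18, 20, 18, 20.4 and 22.3 CPM in HPBCD contralateral and 68, 60.3, 65.2, 118 and 83.9 CPM in HPBCD peri-infarct tissue. Each peri-infarct library lay above each contralateral library of its treatment, and vehicle replicate 3 and HPBCD replicate 4 were the highest of their groups. The log2 difference was 1.5 ± 0.23 in vehicle (SE, 2.83-fold, edgeR adjusted p = 0.00257) and 2 ± 0.17 in HPBCD (4-fold, adjusted p = 1.4e-06).

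Itgb2 (chr10:77530252-77565708), the CD18 beta subunit shared by Itgal, Itgam and Itgad, changed most of the class in HPBCD. Itgb2 stood at 7.86, 7.41, 9.54, 5.98 and 8.51 CPM in vehicle contralateral and 25.4, 15, 69.2, 42.3 and 28 CPM in vehicle peri-infarct tissue. Itgb2 then stood at 5.49, 6.15, 8.41, 4.87 and 7.67 CPM in HPBCD contralateral and 48.5, 36.8, 60, 84.7 and 57.3 CPM in HPBCD peri-infarct tissue. Groups did not overlap within either treatment, and the spread among vehicle peri-infarct libraries was wide. Itgb2 was 4.54-fold higher beside the infarct in vehicle (log2 2.18 ± 0.35, edgeR adjusted p = 0.00275) and 8.78-fold higher in HPBCD (log2 3.14 ± 0.22, adjusted p = 5.49e-07). Between treatments beside the infarct the log2 difference was 0.67 ± 0.35 and did not pass (edgeR adjusted p = 0.178), although limma voom gave an adjusted p of 0.0307.

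Itgb7 (chr15:102215995-102231944), the beta partner of Itga4 and Itgae on lymphocytes, was a low transcript. Itgb7 was at 0.22, 0.872, 0.474, 0.489 and 0.0984 CPM in vehicle contralateral and 1.73, 1.03, 1.58, 2.07 and 0.766 CPM in vehicle peri-infarct tissue. Itgb7 then was at 0.449, 0.403, 0.552, 0.304 and 0.395 CPM in HPBCD contralateral and 2.23, 1.42, 2.86, 4.58 and 2.34 CPM in HPBCD peri-infarct tissue. In vehicle the groups overlapped through contralateral replicate 2 and peri-infarct replicate 5, and in HPBCD they did not. The log2 differences were 1.72 ± 0.46 (edgeR adjusted p = 0.0234) and 2.64 ± 0.33 (adjusted p = 2.75e-05). Without vehicle peri-infarct replicate 4 the vehicle call was lost (adjusted p = 0.063).

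Itga4 (chr2:79255426-79333123) encodes the alpha4 subunit, whose receptors bind Vcam1 and fibronectin. Itga4 reached 4.23, 8.99, 8.18, 29.8 and 6.15 CPM in vehicle contralateral and 19.5, 21, 25.4, 23.4 and 19.1 CPM in vehicle peri-infarct tissue. Itga4 then reached 5.89, 9.33, 7.58, 6.24 and 5.02 CPM in HPBCD contralateral and 22.9, 33.3, 15.5, 10.7 and 9.62 CPM in HPBCD peri-infarct tissue. Vehicle contralateral replicate 4 stood above all vehicle peri-infarct libraries, and HPBCD groups did not overlap. The difference was 1.45 ± 0.33 on the log2 scale in HPBCD (edgeR adjusted p = 0.00248) and did not pass in vehicle (0.91 ± 0.43, adjusted p = 0.155). In vehicle it passed with the animal as a block (adjusted p = 0.0378), in limma voom (1.44, adjusted p = 0.00199) and without contralateral replicate 4 (1.64, adjusted p = 0.00111). Exons of Itga4 overlap Cerkl on the opposite strand by 1124 bases, so its counts are uncertain.

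Itgal (chr7:127296260-127335138) is the alpha subunit of LFA-1, the Icam1 receptor of lymphocytes. Itgal gave 0.989, 0.981, 0.711, 2.28 and 2.85 CPM in vehicle contralateral and 1.27, 1.28, 5.42, 4.1 and 2.44 CPM in vehicle peri-infarct tissue. Itgal then gave 1.1, 2.22, 1.1, 2.51 and 1.07 CPM in HPBCD contralateral and 3.45, 2.84, 3.68, 6.35 and 3.54 CPM in HPBCD peri-infarct tissue. HPBCD peri-infarct replicate 4 was the highest of all, and HPBCD groups did not overlap while vehicle groups did. Itgal rose in HPBCD (log2 1.31 ± 0.30, edgeR adjusted p = 0.00264), and in vehicle the difference was 0.87 ± 0.49 (adjusted p = 0.233).

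**Figure D2:**
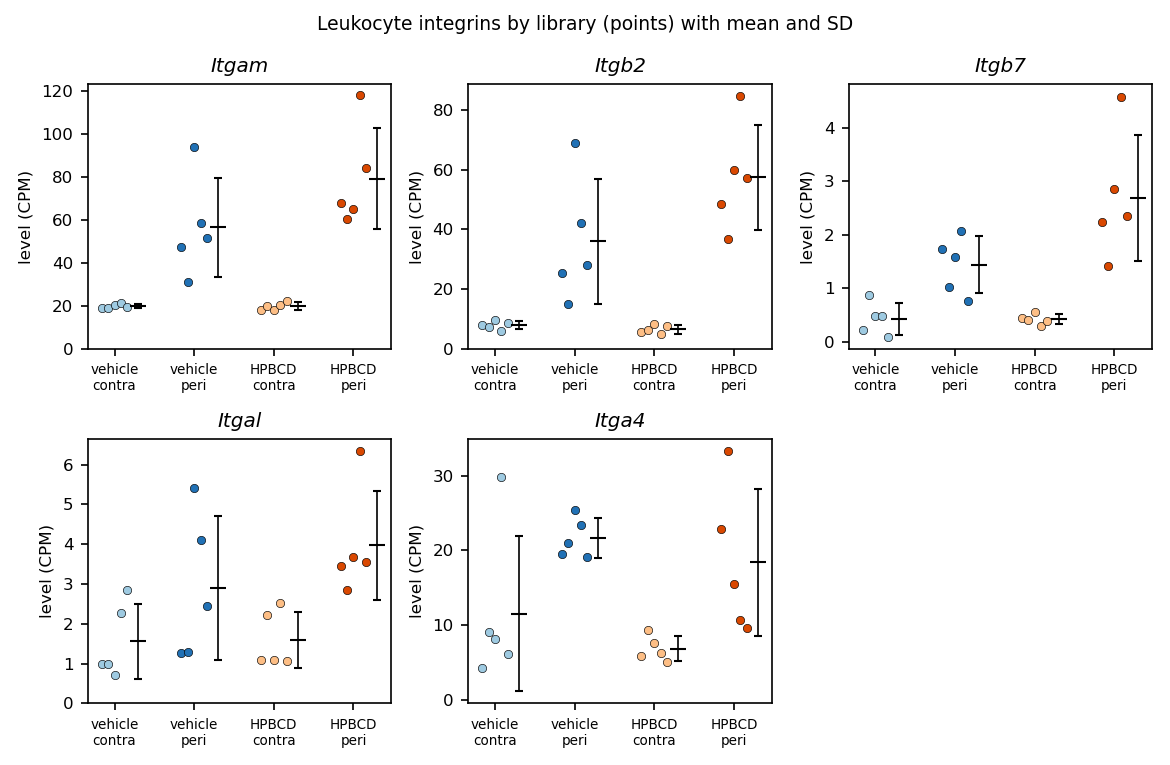
Level in CPM of 5 leukocyte integrins in each library (points) of the 4 groups, with mean and SD (bars). Itgam and Itgb2 separate the regions in both treatments, and Itga4 has a single vehicle contralateral library at 29.8 CPM.

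Markers of microglia and macrophages moved with this class. All 10 of 10 were called higher beside the infarct in vehicle and in HPBCD and 0 of 10 between treatments, with summed levels of 367 to 483 CPM in vehicle contralateral, 728 to 2210 in vehicle peri-infarct, 379 to 442 in HPBCD contralateral and 1230 to 2780 CPM in HPBCD peri-infarct libraries, and none of them was at 0. T lymphocyte markers summed to 5.55 to 49.6 CPM in vehicle and 15.5 to 35.3 CPM in HPBCD peri-infarct tissue. Contralaterally they summed to 1.35 to 2.8 CPM in HPBCD and to 2.12 to 57.2 CPM in vehicle, where replicate 1 was above every peri-infarct library in the sum. The T cell receptor component Cd3e was 0.275 CPM in that replicate, against 0.967 to 2.1 CPM in HPBCD and 0.103 to 2.71 CPM in vehicle peri-infarct libraries, so other genes of the list carry its sum. Neutrophil markers summed to at most 34.2 CPM, in HPBCD peri-infarct replicate 4. The part of these cells in the integrin differences was not tested.

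Ligands of leukocyte integrins on other cells were followed as a list. In vehicle 4 of 10 were higher and 1 lower beside the infarct, in HPBCD 6 higher and 2 lower, and between treatments 4 were higher and 1 lower beside the infarct. Icam1, the endothelial and glial ligand of Itgal and Itgam, rose from 3.5 to 12.3 CPM in vehicle (log2 1.80 ± 0.36, edgeR adjusted p = 0.00692) and from 2.99 to 25.8 CPM in HPBCD (3.11 ± 0.26, adjusted p = 1.68e-06). Vcam1, the ligand of Itga4, rose by 0.91 ± 0.18 and 1.56 ± 0.14 on the log2 scale (adjusted p = 0.00726 and 2.71e-06). Cdh1, E-cadherin, which Itgae binds, averaged 8.05 CPM beside the infarct in vehicle and 27.5 CPM there in HPBCD (log2 1.76 ± 0.47, adjusted p = 0.0268). Thy1, a neuronal surface protein that Itgam can bind, fell in both treatments, from 709 to 570 and from 713 to 388 CPM (log2 -0.33 ± 0.07 and -0.87 ± 0.15, edgeR adjusted p = 0.00664 and 0.000361).

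Matrix-binding integrins changed less uniformly. In vehicle 4 of 16 tested members were higher and 1 lower beside the infarct, beside 20.2% of all genes tested. In HPBCD 10 were higher and 1 lower, beside 54.6% of all genes. The median log2 differences were 0.32 and 0.88. Between treatments 5 of 16 were higher in HPBCD peri-infarct tissue and 0 lower, beside 21.4% of all genes. The interaction called 4, beside 9.41%. Leaving out 1 library gave 2 (without HPBCD peri-infarct replicate 3) to 8 (without vehicle peri-infarct replicate 3) between treatments. For the interaction it gave 1 to 5. The other 2 of the 18, Itga2 and Itgb6, were too low to be tested, at no more than 0.828 CPM in any library.

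Itgb5 (chr16:33829665-33949338) pairs with Itgav in a vitronectin receptor and had the largest region difference among matrix-binding beta subunits in both treatments. Itgb5 lay at 55.5, 48.6, 51, 44.4 and 53.8 CPM in vehicle contralateral and 97.4, 68.6, 159, 122 and 106 CPM in vehicle peri-infarct tissue. Itgb5 then lay at 45.7, 47, 49.1, 51.5 and 38.7 CPM in HPBCD contralateral and 161, 126, 159, 230 and 163 CPM in HPBCD peri-infarct tissue. Groups did not overlap within either treatment, and replicate 3 of vehicle and replicate 4 of HPBCD were highest. Itgb5 rose 2.17-fold in vehicle (log2 1.12 ± 0.18, edgeR adjusted p = 0.00286) and 3.61-fold in HPBCD (log2 1.85 ± 0.14, adjusted p = 9e-07). The difference between those changes, 0.73 ± 0.24, did not pass in edgeR (adjusted p = 0.0569), but it passed with the animal as a block (adjusted p = 0.0442), in DESeq2 (0.0289), in limma voom (0.0084) and in 3 fits without 1 library (0.0131 to 0.0448). Between treatments beside the infarct the log2 difference was 0.59 ± 0.21 and did not pass in edgeR (adjusted p = 0.0598), and it passed in DESeq2 (0.0288), limma voom (0.0147) and the fit of all 4 groups (0.0121).

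Itgb1 (chr8:128685654-128733200) is the common beta subunit that joins most matrix-binding alpha subunits. Itgb1 measured 74.1, 89, 76.1, 70.7 and 80.2 CPM in vehicle contralateral and 95.3, 80.9, 119, 114 and 101 CPM in vehicle peri-infarct tissue. Itgb1 then measured 73.5, 73.9, 81.8, 78.7 and 74 CPM in HPBCD contralateral and 143, 135, 197, 232 and 161 CPM in HPBCD peri-infarct tissue. Vehicle groups overlapped through peri-infarct replicate 2, and each HPBCD peri-infarct library was above all 15 others. Its log2 difference was 0.37 ± 0.10 in vehicle (edgeR adjusted p = 0.0276) and 1.18 ± 0.13 in HPBCD (adjusted p = 1.21e-05). Itgb1 was also higher in HPBCD than in vehicle peri-infarct tissue (0.76 ± 0.15, adjusted p = 0.0141), and the interaction passed (0.80 ± 0.18, adjusted p = 0.0177). The vehicle call was lost with the animal as a block (adjusted p = 0.0644) and in 4 fits without 1 library, peri-infarct replicate 3 or 4 or contralateral replicate 3 or 5 (adjusted p = 0.0502 to 0.0728).

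Itgav (chr2:83724397-83806916), the alpha subunit that pairs with Itgb1, Itgb3, Itgb5, Itgb6 and Itgb8, went against its class. Itgav stood at 129, 134, 133, 140 and 117 CPM in vehicle contralateral and 98.7, 101, 125, 110 and 95.1 CPM in vehicle peri-infarct tissue. Itgav then stood at 136, 149, 143, 148 and 144 CPM in HPBCD contralateral and 104, 79, 104, 118 and 112 CPM in HPBCD peri-infarct tissue. In HPBCD each peri-infarct library was below each contralateral one, and in vehicle peri-infarct replicate 3 overlapped the contralateral group. Itgav fell by 0.31 ± 0.09 on the log2 scale in vehicle (edgeR adjusted p = 0.026) and by 0.48 ± 0.10 in HPBCD (adjusted p = 0.000902). The vehicle call was lost without peri-infarct replicate 1, 4 or 5 or contralateral replicate 2 or 3 (adjusted p = 0.0526 to 0.0606). Exons of Itgav overlap Gm13684 on the opposite strand by 634 bases. Neuron markers were also lower beside the infarct, for 3 of 7 in vehicle and 7 of 7 in HPBCD, with none at 0. Summed levels in contralateral and peri-infarct libraries were 8160 to 10000 and 5020 to 7110 CPM in vehicle. In HPBCD they were 9890 to 10800 and 2390 to 5210 CPM. Between treatments beside the infarct 5 of 7 were lower in HPBCD, while Itgav averaged 106 CPM in vehicle and 103 CPM in HPBCD. HPBCD peri-infarct replicate 2 had the lowest Itgav and the highest sum of its group. HPBCD peri-infarct replicate 4 and vehicle peri-infarct replicate 3 had the highest Itgav and the lowest sum of theirs. The part of neurons in the fall of Itgav was not tested.

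Other beta subunits followed Itgb5 in part. Itgb8 (chr12:119158022-119238802), the partner of Itgav on astrocytes and microglia, rose from 52.3 ± 10.9 to 78.6 ± 14.4 CPM in vehicle (SD, n = 5; log2 0.57 ± 0.16, edgeR adjusted p = 0.025) and from 58.1 ± 12.1 to 98.2 ± 9.68 CPM in HPBCD (0.76 ± 0.13, adjusted p = 0.000419). Its vehicle call was lost without peri-infarct replicate 1 or 4 or contralateral replicate 2, 3 or 5 (adjusted p = 0.0536 to 0.0599). Astrocyte markers moved with Itgb8, with 4 of 6 higher beside the infarct in each treatment and summed levels of 3640 to 4230 CPM in vehicle contralateral, 4540 to 8800 in vehicle peri-infarct, 3370 to 4630 in HPBCD contralateral and 7190 to 10100 CPM in HPBCD peri-infarct libraries, and their part in the difference was not tested. Itgb3, the beta subunit of platelet and vascular integrins, was 3.13 to 6.83 CPM in the 20 libraries and passed no comparison with all libraries in. Without HPBCD contralateral replicate 3 it passed between regions in HPBCD (log2 0.46, edgeR adjusted p = 0.0393).

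Itgb4 (chr11:115974709-116008412), the partner of Itga6 in a laminin receptor of epithelia and some vessels, varied widely in vehicle. Itgb4 was at 21.8, 9.48, 16.6, 7.61 and 17.8 CPM in vehicle contralateral and 18.4, 12.2, 19.5, 12.8 and 29 CPM in vehicle peri-infarct tissue. Itgb4 then was at 10.2, 8.37, 11.1, 11.7 and 10.5 CPM in HPBCD contralateral and 30.5, 21.2, 31.3, 28.9 and 32.3 CPM in HPBCD peri-infarct tissue. Vehicle groups overlapped, whereas HPBCD groups did not. The log2 difference was 1.47 ± 0.12 in HPBCD (edgeR adjusted p = 1.63e-06) and 0.31 ± 0.30 in vehicle (adjusted p = 0.497). Their difference was 1.15 ± 0.35 by the interaction (adjusted p = 0.0454). That call was lost in 14 of 20 fits without 1 library (adjusted p = 0.0565 to 0.0889); it held without vehicle peri-infarct replicate 3 or 5, vehicle contralateral replicate 2 or 4, or HPBCD peri-infarct replicate 1 or 2. Between treatments beside the infarct Itgb4 did not pass in the main edgeR fit. It passed there in DESeq2 (adjusted p = 0.0284), in limma voom (0.0099) and without vehicle replicate 5 (0.0239) or HPBCD replicate 2 (0.0317). Oligodendrocyte markers moved with Itgb4, with 5 of 5 higher beside the infarct in HPBCD and 0 of 5 in vehicle. Their summed level was 3640 to 9390 CPM in vehicle contralateral, 4940 to 12000 in vehicle peri-infarct, 4440 to 5600 in HPBCD contralateral and 9930 to 15500 CPM in HPBCD peri-infarct libraries. The vehicle libraries with the lowest Itgb4, contralateral replicates 2 and 4 and peri-infarct replicates 2 and 4, also had the lowest of these sums in their groups, and the part of these cells in the Itgb4 difference was not tested. B230344G16Rik overlaps 537 exon bases of Itgb4 on the opposite strand.

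Itga6 (chr2:71745616-71858416), the laminin-binding alpha subunit, rose in both treatments, from 21 ± 1.81 to 32 ± 9.19 CPM in vehicle (SD, n = 5; log2 0.60 ± 0.16, edgeR adjusted p = 0.0245) and from 24.5 ± 4.3 to 43.8 ± 11.6 CPM in HPBCD (0.84 ± 0.17, adjusted p = 0.000973). Between treatments beside the infarct Itga6 passed in limma voom (log2 0.45, adjusted p = 0.0281) and without vehicle replicate 3 (0.64, 0.02). The main edgeR fit did not call it. Itga3 and Itga7, which also bind laminin, passed no comparison with all libraries in, with log2 differences between regions from -0.02 to 0.28. Itga7 passed between regions in HPBCD without contralateral replicate 4 (0.35, edgeR adjusted p = 0.0423).

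Itga5 (chr15:103344286-103366763), the fibronectin receptor subunit, had the largest region difference in HPBCD among the tested members of the matrix-binding class. Itga5 reached 12.5, 2.34, 2.73, 2.39 and 3.69 CPM in vehicle contralateral and 5.25, 5.59, 16.6, 10.4 and 6.51 CPM in vehicle peri-infarct tissue. Itga5 then reached 2.05, 2.17, 2.07, 1.67 and 1.69 CPM in HPBCD contralateral and 14.2, 8.62, 15.7, 25.1 and 13.6 CPM in HPBCD peri-infarct tissue. Vehicle contralateral replicate 1, the library rich in striatal markers, was above 4 of the 5 vehicle peri-infarct libraries, and HPBCD groups did not overlap. Itga5 rose 7.92-fold in HPBCD (log2 2.98 ± 0.25, edgeR adjusted p = 1.43e-06). In vehicle it did not pass (0.89 ± 0.50, adjusted p = 0.231), but it passed without contralateral replicate 1 (1.66, adjusted p = 0.0115) and in limma voom (1.08, adjusted p = 0.0464). The interaction of 2.09 ± 0.61 (adjusted p = 0.0386) fell to 1.33 (adjusted p = 0.0781) without that library, and to 1.80 (adjusted p = 0.0839) with the animal as a block. It was lost in 11 of 20 fits without 1 library (adjusted p = 0.0507 to 0.0782). Those left out vehicle peri-infarct replicate 1, 2 or 5, vehicle contralateral replicate 1, HPBCD peri-infarct replicate 3 or 4, or any HPBCD contralateral replicate. Between treatments beside the infarct Itga5 did not pass in the main edgeR fit. There it passed in limma voom (log2 0.93, adjusted p = 0.0165) and without vehicle replicate 3 (1.15, 0.02).

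Of the collagen-binding alpha subunits, which pair with Itgb1, Itga1, Itga10 and Itga11 passed between treatments beside the infarct, and Itga2 was too low to be tested. Itga11 (chr9:62677826-62783982) is the receptor subunit for fibrillar collagen on fibroblasts. Itga11 gave 2.97, 3.54, 0.948, 2.61 and 2.16 CPM in vehicle contralateral and 3.21, 1.79, 3.05, 2.97 and 1.91 CPM in vehicle peri-infarct tissue. Itga11 then gave 2.3, 1.01, 2.9, 0.989 and 1.18 CPM in HPBCD contralateral and 6.1, 4.41, 9.88, 10.8 and 4.35 CPM in HPBCD peri-infarct tissue. Each HPBCD peri-infarct library was above all 15 others, and vehicle regions overlapped. The log2 difference between regions was 0.07 ± 0.31 in vehicle and 2.08 ± 0.36 in HPBCD (edgeR adjusted p = 0.906 and 0.00036). It was 1.45 ± 0.30 between treatments beside the infarct (adjusted p = 0.0147) and 2.01 ± 0.51 for the interaction (adjusted p = 0.0243), the latter lost without replicate 2 of the vehicle or 3 of the HPBCD peri-infarct libraries (adjusted p = 0.051 and 0.052).

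Itga1 (chr13:114953096-115101964) binds type IV and fibrillar collagens. Itga1 lay at 4.01, 6.32, 3.73, 4.13 and 3.84 CPM in vehicle contralateral and 5.71, 4.31, 7.23, 5.94 and 6.41 CPM in vehicle peri-infarct tissue. Itga1 then lay at 4.24, 6.15, 6, 6.47 and 3.61 CPM in HPBCD contralateral and 8.33, 9.58, 12.4, 12.5 and 8.09 CPM in HPBCD peri-infarct tissue. The lowest HPBCD peri-infarct library was above all other libraries. Itga1 rose by 0.95 ± 0.20 on the log2 scale in HPBCD (edgeR adjusted p = 0.00123), did not pass in vehicle (0.41 ± 0.19, adjusted p = 0.145) and was 0.77 ± 0.17 higher in HPBCD than in vehicle peri-infarct tissue (adjusted p = 0.0173). The difference between treatments was lost without HPBCD peri-infarct replicate 3 (adjusted p = 0.0513).

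Itga10 (chr3:96645584-96664519), the collagen receptor subunit of cartilage, was a low transcript contralaterally. Itga10 measured 0.715, 1.25, 1.18, 0.652 and 1.18 CPM in vehicle contralateral and 1.38, 1.18, 1.58, 3.49 and 1.34 CPM in vehicle peri-infarct tissue. Itga10 then measured 2.15, 1.01, 0.62, 0.228 and 1.58 CPM in HPBCD contralateral and 3.49, 3.6, 8.86, 7.62 and 3.16 CPM in HPBCD peri-infarct tissue. Vehicle peri-infarct replicate 4 reached the range of HPBCD. The log2 difference was 2.19 ± 0.45 between regions in HPBCD (edgeR adjusted p = 0.00122) and 1.56 ± 0.39 between treatments (adjusted p = 0.0227), the latter lost without replicate 1 or 2 of the vehicle or 3 or 4 of the HPBCD peri-infarct libraries (adjusted p = 0.0503 to 0.0617). Itga10 shares 1739 exon bases with Gm42957 on the same strand, so these counts are uncertain.

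Itga2b (chr11:102453297-102470122), the platelet subunit that pairs with Itgb3, passed in a single comparison. Itga2b stood at 2.42, 2.83, 3.85, 2.07 and 1.53 CPM in vehicle contralateral and 2.45, 2.51, 2.88, 2.59 and 2.06 CPM in vehicle peri-infarct tissue. Itga2b then stood at 3.14, 2.37, 3.24, 1.29 and 2.99 CPM in HPBCD contralateral and 4.54, 2.58, 4.31, 3.81 and 3.54 CPM in HPBCD peri-infarct tissue. Groups overlapped in every comparison. The log2 difference between treatments beside the infarct was 0.58 ± 0.18 (edgeR adjusted p = 0.0411). The call held in 2 of 10 fits without 1 library, those without replicate 3 of the vehicle or 2 of the HPBCD peri-infarct libraries, and the other 8 gave adjusted p-values of 0.0653 to 0.101. It was also lost with no filter (adjusted p = 0.0729), in the fit of all 4 groups (0.0695) and with a block on the replicate number, which is only a name between treatments (0.0532). Of the other platelet markers, Gp1bb was the only one tested in that comparison and did not pass (log2 -0.39 ± 0.22, edgeR adjusted p = 0.208), and Gp6 had 1 count in all 20 libraries together. Itga8 and Itga9, the remaining subunits, were 3.35 to 10.6 and 3.67 to 19.2 CPM, and Itga9 rose in HPBCD (log2 0.92 ± 0.17, edgeR adjusted p = 0.000451). In vehicle Itga9 did not pass, but without contralateral replicate 1, at 19.2 CPM, it did (0.96, adjusted p = 0.0245).

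**Figure D3:**
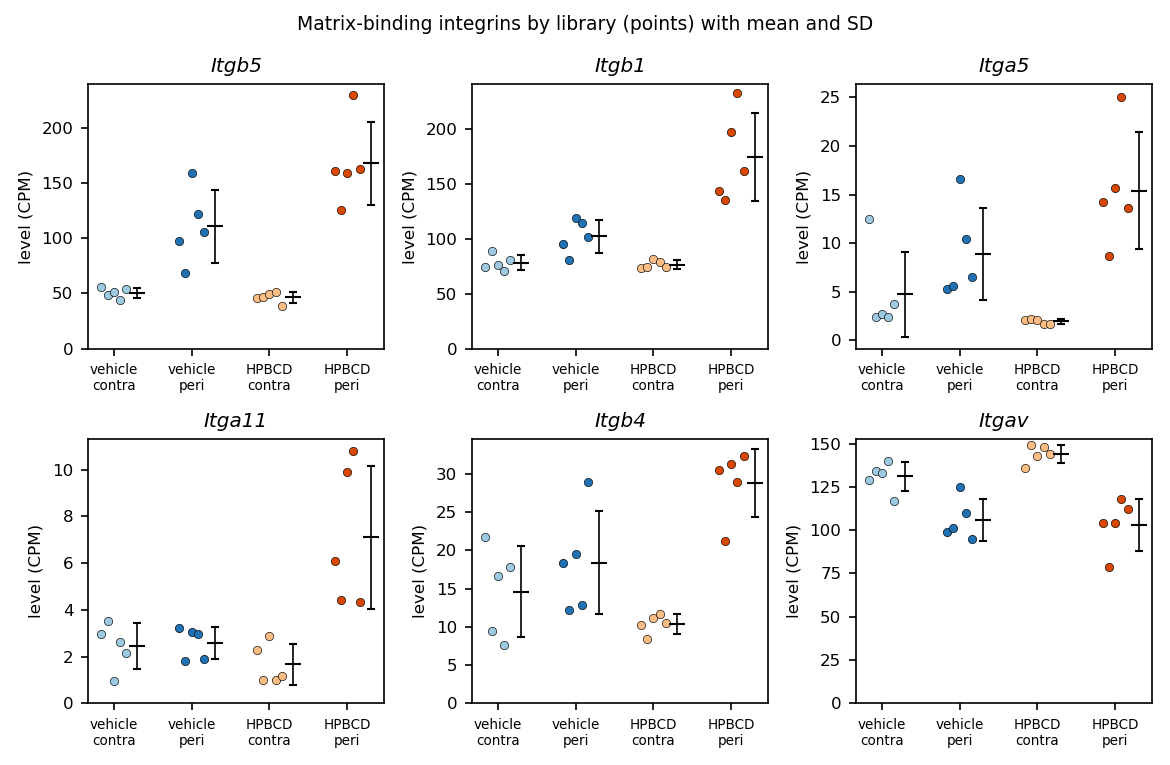
Level in CPM of 6 matrix-binding integrins in each library (points) of the 4 groups, with mean and SD (bars). Itgb5 and Itgb1 are highest in HPBCD peri-infarct tissue, Itga5 has a vehicle contralateral library at 12.5 CPM, and Itgav is lower beside the infarct.

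Proteins that couple integrins to actin were followed as a list. Of 23 tested, 10 were higher and 1 lower beside the infarct in vehicle, 13 higher and 4 lower in HPBCD, 9 higher and 0 lower between treatments beside the infarct, and 4 higher by the interaction. Fermt3, the kindlin of blood cells and microglia, rose from 4.75 to 13.5 CPM in vehicle (log2 1.5 ± 0.30, edgeR adjusted p = 0.00723) and from 4.74 to 19.8 CPM in HPBCD (2.06 ± 0.16, adjusted p = 1.1e-06). Flna, filamin A, which links integrin tails to actin, differed between treatments (67.7 and 127 CPM, log2 0.90 ± 0.17, adjusted p = 0.0133). Parva, alpha-parvin, fell in both treatments (log2 -0.59 ± 0.13 and -0.54 ± 0.09, edgeR adjusted p = 0.00936 and 0.000283), as Itgav did.

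Matrix ligands other than laminins were followed as a list. In vehicle 6 of 17 rose and 1 fell, in HPBCD 15 rose and 1 fell, and between treatments 10 rose and 0 fell. Spp1, osteopontin, a ligand of Itgav receptors, was 10.7 and 88.1 CPM in vehicle and 11.5 and 199 CPM in HPBCD contralateral and peri-infarct tissue (log2 3.03 ± 0.66 and 4.11 ± 0.35, edgeR adjusted p = 0.00975 and 1.72e-06). Col4a6, a type IV collagen chain, rose by 2.12 ± 0.49 and 3.38 ± 0.29 on the log2 scale (adjusted p = 0.0126 and 1.72e-06). Fn1, fibronectin, the ligand of Itga5 with Itgb1, averaged 90.9 CPM beside the infarct in vehicle and 277 CPM there in HPBCD (log2 1.60 ± 0.33, adjusted p = 0.0146). Npnt, nephronectin, the ligand of Itga8, fell in both treatments (log2 -0.61 ± 0.19 and -1.07 ± 0.13, edgeR adjusted p = 0.047 and 2.36e-05).

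Itgav receptors also release latent TGF-beta from the matrix. Of 9 genes for TGF-beta and its binding proteins, 2 were higher in vehicle, 8 in HPBCD and 4 between treatments, and 0 were lower in any. Tgfb1 rose from 5.39 to 14.4 CPM in vehicle (log2 1.40 ± 0.24, edgeR adjusted p = 0.00365) and from 5.12 to 23.7 CPM in HPBCD (2.19 ± 0.21, adjusted p = 3.68e-06). Ltbp2, a binding protein of elastic fibres, averaged 1 CPM beside the infarct in vehicle and 8.46 CPM there in HPBCD (log2 3.05 ± 0.81, adjusted p = 0.0268).

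Laminins and linkers differed most between treatments. In vehicle 2 of 15 members were higher beside the infarct and 0 lower, beside 20.2% of all genes (10.5% higher). In HPBCD 11 were higher and 1 lower, beside 54.6% (30.3% higher). The median log2 difference was 0.33 and 1.37. The vehicle count was 4 in limma voom and without replicate 2 of either region. It was 1 without peri-infarct replicate 4 and with the animal as a block. Between treatments beside the infarct 9 were higher in HPBCD and 1 lower (median log2 0.91), and the interaction called 7 higher. In contralateral tissue 0 of 15 passed and the median was -0.11.

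Lamb1 (chr12:31265234-31329644), a beta chain of the early and vascular laminins, was the laminin that rose most in vehicle. Lamb1 was at 15.3, 9.75, 11.2, 12.2 and 7.58 CPM in vehicle contralateral and 23.5, 16.9, 23.8, 22.4 and 15.9 CPM in vehicle peri-infarct tissue. Lamb1 then was at 9.58, 9.73, 11.4, 10.7 and 9.25 CPM in HPBCD contralateral and 24.6, 43.4, 30.8, 21.5 and 19.6 CPM in HPBCD peri-infarct tissue. Groups did not overlap in either treatment, and HPBCD peri-infarct replicate 2 was the highest. The log2 difference was 0.86 ± 0.19 in vehicle (edgeR adjusted p = 0.00969) and 1.48 ± 0.21 in HPBCD (adjusted p = 6.41e-05), and it was 0.45 ± 0.22 between treatments (adjusted p = 0.149).

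Lamc1 (chr1:153218922-153332786), the gamma chain of most laminins, rose in both treatments. Lamc1 reached 29.1, 27.5, 22.9, 25.1 and 21.6 CPM in vehicle contralateral and 28.9, 30.3, 40.6, 37.5 and 36.1 CPM in vehicle peri-infarct tissue. Lamc1 then reached 22.1, 29.8, 24.4, 23.4 and 21 CPM in HPBCD contralateral and 59.1, 54.2, 70.7, 70.7 and 52.6 CPM in HPBCD peri-infarct tissue. In vehicle peri-infarct replicate 1 lay within the contralateral range, and the HPBCD peri-infarct libraries were above all others. Its log2 difference was 0.45 ± 0.11 in vehicle (edgeR adjusted p = 0.0194) and 1.35 ± 0.12 in HPBCD (adjusted p = 1.92e-06). Lamc1 was 0.82 ± 0.12 higher in HPBCD beside the infarct (adjusted p = 0.0127), and the interaction was 0.89 ± 0.17 (adjusted p = 0.0139). The vehicle call was lost without peri-infarct replicate 4 (adjusted p = 0.0511) and with the animal as a block (adjusted p = 0.0518).

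Lamb2 (chr9:108479736-108490530) is the beta chain of mature vascular and pial basement membranes. Lamb2 gave 37.9, 62.7, 39.8, 37.3 and 36 CPM in vehicle contralateral and 56.6, 42, 81.7, 86.1 and 60.5 CPM in vehicle peri-infarct tissue. Lamb2 then gave 49.5, 36.7, 42, 33.2 and 38 CPM in HPBCD contralateral and 117, 114, 170, 183 and 103 CPM in HPBCD peri-infarct tissue. Vehicle contralateral replicate 2 was above 3 of the 5 vehicle peri-infarct libraries, and each HPBCD peri-infarct library exceeded the 15 others. Lamb2 rose 3.44-fold in HPBCD (log2 1.78 ± 0.17, edgeR adjusted p = 3.33e-06), with 0.60 ± 0.21 in vehicle (adjusted p = 0.0586), 1.06 ± 0.21 between treatments (adjusted p = 0.0139) and 1.17 ± 0.28 for the interaction (adjusted p = 0.0217). The vehicle difference passed in DESeq2 (adjusted p = 0.0259), limma voom (0.0324) and the fit of all 4 groups (0.0359).

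Lama2 (chr10:26980036-27619758), the alpha chain of the laminin that binds dystroglycan on astrocyte endfeet, rose in HPBCD. Lama2 lay at 11.9, 12.3, 10.6, 9.13 and 9.74 CPM in vehicle contralateral and 11.2, 10.6, 12.9, 13.4 and 16.1 CPM in vehicle peri-infarct tissue. Lama2 then lay at 8.58, 10.2, 13.2, 11.9 and 10.9 CPM in HPBCD contralateral and 22.3, 27.6, 32.8, 34.3 and 24.5 CPM in HPBCD peri-infarct tissue. HPBCD peri-infarct libraries were above all 15 others. The log2 difference was 0.25 ± 0.13 in vehicle (edgeR adjusted p = 0.205), 1.37 ± 0.15 in HPBCD (adjusted p = 8.47e-06), 1.13 ± 0.15 between treatments (adjusted p = 0.0115) and 1.11 ± 0.20 for the interaction (adjusted p = 0.0139).

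Lama1 (chr17:67697259-67822647), an alpha chain of pial and embryonic laminin, was the alpha chain with the largest change. Lama1 measured 1.48, 5.39, 1.3, 2.45 and 0.984 CPM in vehicle contralateral and 3.42, 1.33, 2.77, 5.42 and 2.73 CPM in vehicle peri-infarct tissue. Lama1 then measured 2.94, 0.857, 4, 0.837 and 2.31 CPM in HPBCD contralateral and 7.49, 7.91, 12.6, 10.5 and 5.89 CPM in HPBCD peri-infarct tissue. Vehicle regions overlapped, and the lowest HPBCD peri-infarct library was above all other libraries. Lama1 was 4.04-fold higher beside the infarct in HPBCD (log2 2.01 ± 0.38, edgeR adjusted p = 0.000587) and 2.81-fold higher in HPBCD than in vehicle there (1.49 ± 0.32, adjusted p = 0.0157). The interaction, 1.58 ± 0.64, did not pass (adjusted p = 0.113).

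Lama4 (chr10:38965515-39110188), the alpha chain of endothelial basement membrane, changed to a smaller extent. Lama4 stood at 4.23, 8.88, 7.23, 7.45 and 5.07 CPM in vehicle contralateral and 7.04, 8.05, 7.17, 11 and 8.66 CPM in vehicle peri-infarct tissue. Lama4 then stood at 8.44, 8.57, 7.45, 8.6 and 6.31 CPM in HPBCD contralateral and 15.3, 12.1, 20.8, 19.2 and 11.7 CPM in HPBCD peri-infarct tissue. HPBCD peri-infarct tissue was above all other libraries. It rose 2-fold in HPBCD (log2 1.00 ± 0.17, edgeR adjusted p = 0.000293) and differed by 0.91 ± 0.18 between treatments (adjusted p = 0.0141). Endothelial markers did not move with it as a list, since 0 of 8 passed in vehicle, 1 was higher and 2 lower in HPBCD, 1 was higher between treatments, and summed levels were 182 to 303 CPM in vehicle and 208 to 316 CPM in HPBCD peri-infarct libraries.

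Lamc3 (chr2:31887291-31946539), a gamma chain found in meninges and retina, was below 10 CPM in each library. Lamc3 was at 3.35, 4.74, 3.02, 3.53 and 2.02 CPM in vehicle contralateral and 4.03, 4, 4.12, 3.44 and 3.25 CPM in vehicle peri-infarct tissue. Lamc3 then was at 2.65, 4.08, 3.24, 2.66 and 2.31 CPM in HPBCD contralateral and 7.53, 8.21, 9.93, 6.84 and 6.75 CPM in HPBCD peri-infarct tissue. Vehicle regions overlapped and HPBCD regions did not. Its log2 difference was 1.39 ± 0.18 in HPBCD (edgeR adjusted p = 3.82e-05), 0.17 ± 0.21 in vehicle (adjusted p = 0.615), 1.05 ± 0.15 between treatments (adjusted p = 0.0127) and 1.21 ± 0.27 for the interaction (adjusted p = 0.0184). Gm13441 overlaps 382 exon bases of Lamc3 on the opposite strand. Lama3 and Lamb3, chains of an epithelial laminin, passed no edgeR comparison with all libraries in. Lama3 passed between regions in HPBCD in limma voom (log2 0.43, adjusted p = 0.0378). In edgeR it passed there without HPBCD contralateral replicate 5 (0.50, adjusted p = 0.028).

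Nid1 (chr13:13437551-13512269), nidogen 1, which bridges laminin and type IV collagen, had the largest region difference among laminins and linkers in HPBCD. Nid1 gave 4.18, 9.26, 3.85, 4.29 and 3.79 CPM in vehicle contralateral and 8.26, 4.82, 9.09, 15 and 7.85 CPM in vehicle peri-infarct tissue. Nid1 then gave 4.14, 5.4, 8.2, 3.73 and 4.06 CPM in HPBCD contralateral and 28.6, 25, 55, 44.2 and 21.4 CPM in HPBCD peri-infarct tissue. The lowest HPBCD peri-infarct library was above all 15 others, and vehicle contralateral replicate 2 lay within the vehicle peri-infarct range. Nid1 rose 6.82-fold in HPBCD (log2 2.77 ± 0.29, edgeR adjusted p = 6.87e-06), and the vehicle difference of 0.81 ± 0.32 did not pass (adjusted p = 0.0936). The vehicle difference passed in limma voom (0.96, adjusted p = 0.0399) and without replicate 2 of the vehicle peri-infarct (0.97, 0.0402) or contralateral libraries (1.16, 0.022). Nid1 was 3.84-fold higher in HPBCD than in vehicle beside the infarct (1.94 ± 0.32, adjusted p = 0.0128), with an interaction of 1.94 ± 0.46 (adjusted p = 0.0202).

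Nid2 (chr14:19751265-19811787), nidogen 2, is a second such bridge, mainly of vessels. Nid2 lay at 3.3, 3.38, 2.25, 2.45 and 2.8 CPM in vehicle contralateral and 3.57, 2.41, 6.61, 4.99 and 3.21 CPM in vehicle peri-infarct tissue. Nid2 then lay at 2.5, 2.42, 3.52, 2.97 and 2.14 CPM in HPBCD contralateral and 8.37, 6.59, 9.45, 12.7 and 6.7 CPM in HPBCD peri-infarct tissue. Vehicle peri-infarct replicate 3 overlapped the HPBCD peri-infarct group by a narrow margin. The log2 difference was 1.70 ± 0.21 in HPBCD (edgeR adjusted p = 2.42e-05), 1.07 ± 0.27 between treatments (adjusted p = 0.0238) and 1.15 ± 0.34 for the interaction (adjusted p = 0.042). The difference between treatments was lost without replicate 1 or 2 of the vehicle or 3 or 4 of the HPBCD peri-infarct libraries (adjusted p = 0.0508 to 0.061). The interaction was lost in 13 of 20 fits without 1 library (adjusted p = 0.0508 to 0.0863) and held without vehicle peri-infarct replicate 3 or 4, vehicle contralateral replicate 4, HPBCD peri-infarct replicate 1, 2 or 5, or HPBCD contralateral replicate 3. Rtraf overlaps 437 exon bases of Nid2 on the opposite strand.

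Hspg2 (chr4:137468769-137570630) encodes perlecan, the large heparan sulfate proteoglycan of basement membranes. Hspg2 measured 11.5, 14.6, 9.07, 7.72 and 10.6 CPM in vehicle contralateral and 12.9, 10.4, 15.2, 18.1 and 11.5 CPM in vehicle peri-infarct tissue. Hspg2 then measured 8.98, 9.48, 9.44, 7.76 and 8.8 CPM in HPBCD contralateral and 25.7, 23.6, 43.2, 41.1 and 22.9 CPM in HPBCD peri-infarct tissue. Each HPBCD peri-infarct library exceeded the 15 others, with replicates 3 and 4 the highest. Hspg2 rose 3.5-fold in HPBCD (log2 1.81 ± 0.19, edgeR adjusted p = 5.85e-06), with 0.33 ± 0.19 in vehicle (adjusted p = 0.237), 1.19 ± 0.22 between treatments (adjusted p = 0.0128) and 1.47 ± 0.28 for the interaction (adjusted p = 0.0139). Agrn, agrin, the other proteoglycan, ranged from 89.2 to 136 CPM and passed no comparison, with log2 differences between -0.13 and 0.12. Lama5, the remaining alpha chain, rose in HPBCD (log2 0.57 ± 0.12, adjusted p = 0.00123). Between treatments beside the infarct Lama5 passed in DESeq2 (adjusted p = 0.0481) and limma voom (0.0136). In edgeR it passed there only without vehicle replicate 3 (0.0246) or HPBCD replicate 2 (0.0356).

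**Figure D4:**
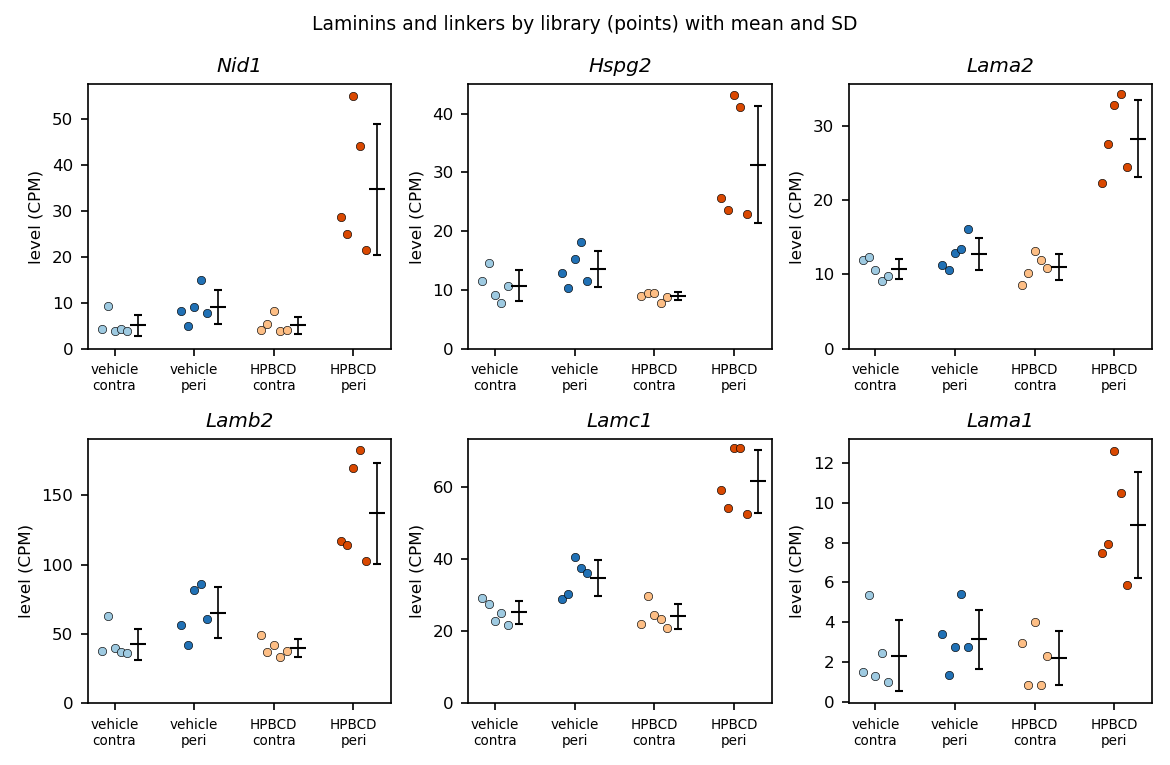
Level in CPM of 6 laminins and linkers in each library (points) of the 4 groups, with mean and SD (bars). Each of the 6 is highest in the 5 HPBCD peri-infarct libraries, and Lama1 varies widely in vehicle contralateral tissue.

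Markers of fibroblasts and meninges moved with the laminins. They were higher for 2 of 8 in vehicle, 8 of 8 in HPBCD, 7 of 8 between treatments beside the infarct and 4 of 8 by the interaction. Their summed level was 54.6 to 167 CPM in vehicle contralateral, 110 to 351 in vehicle peri-infarct, 67.4 to 142 in HPBCD contralateral and 397 to 1110 CPM in HPBCD peri-infarct libraries, with none of the 8 at 0. HPBCD peri-infarct replicates 3 and 4, which had the highest Nid1, Hspg2 and Lamb2, also had the highest of these sums, 1080 and 1110 CPM. The collagen-binding subunits Itga1, Itga10 and Itga11 were also highest in these replicates. Lamb1 ran otherwise, with its highest level in HPBCD peri-infarct replicate 2 (43.4 CPM), which had the lowest sum of its group, 397 CPM. Vehicle contralateral replicate 2, which had the highest Nid1 and Lamb2 of its group, had the highest sum of its group, 167 CPM. Between treatments beside the infarct, markers were also higher for 3 of 8 of pericytes and smooth muscle, 3 of 5 of ependyma, 3 of 5 of perivascular macrophages, 2 of 4 of choroid plexus and 3 of 3 of red blood cells (summed means of 7.25 CPM in vehicle and 31.8 CPM in HPBCD), and lower for 5 of 7 of neurons. Between regions in HPBCD all 6 striatal neuron markers were higher (median log2 3.08), as were 5 of 5 of ependyma. In vehicle 0 of 6 and 1 of 4 were. Summed striatal levels in vehicle contralateral tissue were 123 to 192 CPM apart from replicate 1, at 2060 CPM. Without that library, they were below every vehicle peri-infarct library. Summed ependymal levels were 22 to 53.9 CPM in vehicle and 80.3 to 158 CPM in HPBCD peri-infarct libraries, and summed striatal levels were 231 to 1230 and 367 to 1150 CPM. The part of these cells in the differences of laminins and collagen-binding integrins was not tested.

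Laminin receptors other than integrins and components of the dystroglycan complex were higher for 8 of 13 tested genes in vehicle, 11 of 15 in HPBCD and 7 of 15 between treatments beside the infarct, and 0 were lower in any. Dag1, dystroglycan, the receptor of Lama2, Hspg2 and Agrn, rose from 82.9 to 107 CPM in vehicle (log2 0.35 ± 0.08, edgeR adjusted p = 0.0123) and from 83.6 to 139 CPM in HPBCD (0.73 ± 0.09, adjusted p = 2.06e-05). Sdc1, syndecan 1, averaged 1.84 CPM beside the infarct in vehicle and 6.64 CPM there in HPBCD (log2 1.84 ± 0.32, adjusted p = 0.0128).

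The makeup of the families was then described per kilobase within each library. Among alpha chains Lama5 stood at 32.7 ± 3.75 and 24.3 ± 2.68% and Lama1 stood at 7.57 ± 4.53 and 15.2 ± 2.01% in HPBCD contralateral and peri-infarct tissue. Lamb2 held 81.7 to 87.7% of the beta chain level in the 4 group means.

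Among alpha integrins Itgav took the largest share contralaterally, 43.8 ± 1.96% in vehicle and 47.5 ± 0.879% in HPBCD, and 27.6 ± 3.34 and 21.1 ± 2.29% beside the infarct. Itgam took 14.2 ± 0.856 and 13.9 ± 1.19% contralaterally and 29.9 ± 5.61 and 33.8 ± 4.01% beside the infarct. Of the beta partners of Itgav, Itgb1 was ahead of Itgb5 contralaterally (49.1 ± 2.9 and 36.7 ± 2.87% in vehicle), and Itgb5 was ahead in the means beside the infarct (47.8 ± 4.02 against 39.5 ± 3.17% in vehicle, 47.3 ± 2.77 against 42.6 ± 2.8% in HPBCD), though not in vehicle replicate 2 or HPBCD replicate 3. These shares are descriptions of the levels tested above and carry no test of their own.

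**Figure D5:**
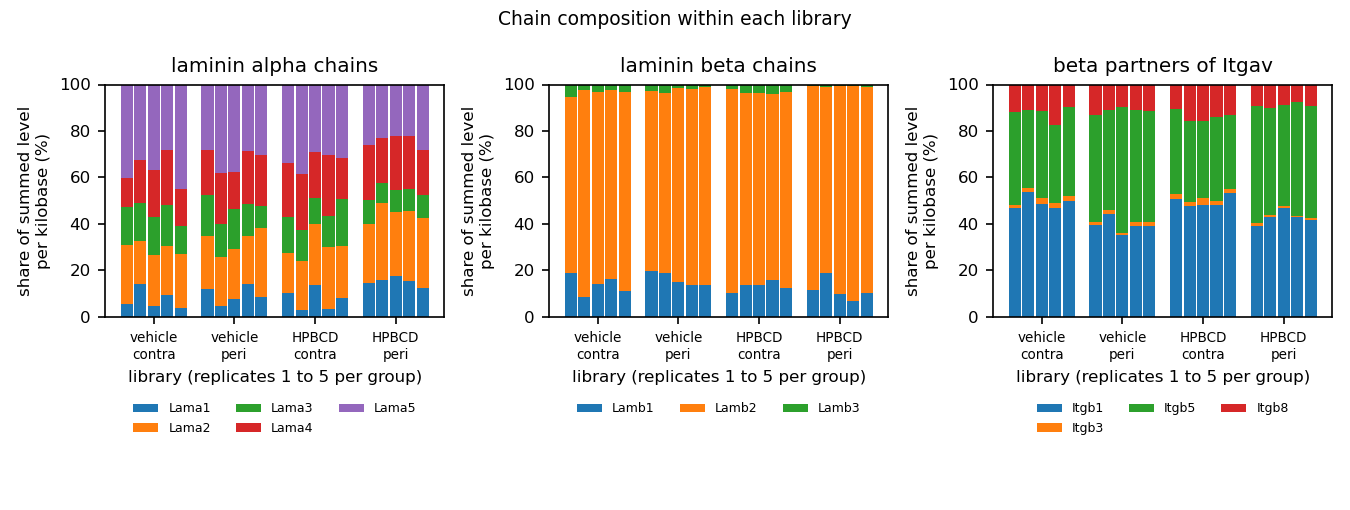
Share (%) of each chain in the summed level per kilobase of laminin alpha chains, laminin beta chains and the beta partners of Itgav, 1 bar per library in the 4 groups. Lamb2 holds most of the beta chain level in each library, and the share of Itgb5 is larger beside the infarct than contralaterally in both treatments.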

How the data were processed

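RNA was sequenced in 20 libraries, 4 groups of 5. Per the labels and the study's methods, the authors made stranded mRNA libraries, trimmed reads with Trimmomatic 0.32, aligned them to GRCm38 with STAR 2.5.2b and counted them per gene with HTSeq, and the deposited values are raw counts. The strand option of the counting was not given in the sources used here. The 5 lines of each file that name no gene were left out (4.39 to 5.86% of reads lacked a feature and 3.94 to 4.16% were ambiguous in 19 libraries, against 9.5 and 8.03% in HPBCD contralateral replicate 4, and 16.6 to 24.3% did not align uniquely). Symbols, exon lengths and gene coordinates come from GENCODE M21 on GRCm38.

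For each comparison of 10 libraries, and for the interaction over 20, counts entered edgeR 4.0.16 in R 4.3.3 (TMM factors, filterByExpr, quasi-likelihood fit), with Benjamini-Hochberg adjustment over all genes tested and a threshold of 0.05. The SE was obtained from the log2 fold change and the F statistic. CPM share TMM factors over the 20 libraries. Scripts were first tested on simulated data. Replicates of a group carry different identifiers, taken as different animals.

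The members and lists were chosen with earlier results of these data known. Values in every library are given for up to 6 members per class with a call in at least 1 comparison and a mean of at least 1 CPM, by size of the region difference, plus each member called between treatments or by the interaction, and members that went against their class. Genes of the other lists were named among the 3 largest called changes per direction and comparison, and Dag1 was added after its values were seen. Of the laminin chains, 1 is counted with the members, and its own values are not reported here.

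Within a treatment, a replicate number was taken to stand for 1 animal, because the deposited names of its region pair share an identifier. The deviations of paired libraries had a mean correlation over genes of 0.0564 in vehicle and 0.119 in HPBCD (5 pairs each, 2 of 5 over 0.1 in both). The contralateral library of the same number was the closest for 1 of 5 peri-infarct libraries in vehicle and 2 of 5 in HPBCD. The pairing therefore rests on the identifier alone. The main fits carry no animal term, so they treat the regions of an animal as independent libraries. Across treatments the number is a name. Alternatives were DESeq2 1.42.0, limma 3.58.1 voom with sample quality weights, RLE scaling, no filter, at least 10 counts in every library, a replicate block, a single fit of the 4 groups, and fits without each library in turn.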

Additional observations from a re-analysis of the deposited data

Results flagged for a closer look

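Within groups of 5, a library was marked when its gap to the nearest other library was a large share of the group's range (Dixon's 95% limit). Of 144 such tests on the 36 members with a mean of at least 1 CPM, 13 were marked, and chance marks about 1 in 20.

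In vehicle contralateral tissue the marked libraries were replicate 4 for Itga4 (29.8 CPM, others 4.23 to 8.99) and Itgb8 (71 CPM, others 42.5 to 50.7), and replicate 1 for Itga5 (12.5 CPM, others 2.34 to 3.69) and Itga9 (19.2 CPM, others 3.67 to 5.9). Replicate 2 of that group was marked for Itga1 (6.32 CPM, others 3.73 to 4.13), Lamb2 (62.7 CPM, others 36 to 39.8) and Nid1 (9.26 CPM, others 3.79 to 4.29). In vehicle peri-infarct tissue the marked libraries were replicate 3 for Itga6 (48.2 CPM, others 25.2 to 29.9) and Itga9 (16.3 CPM, others 6.89 to 9.28), replicate 4 for Itga10 (3.49 CPM, others 1.18 to 1.58) and replicate 2, the lowest, for Itgb8 (53.6 CPM, others 79.6 to 89.3). In HPBCD peri-infarct tissue replicate 4 was marked for Itgal (6.35 CPM, others 2.84 to 3.68) and Itga6 (64 CPM, others 36.8 to 43.1).

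The region difference was larger in HPBCD than in vehicle for 11 members by the edgeR interaction term over the 20 libraries. The log2 size of the interaction was 2.09 for Itga5 (adjusted p = 0.0386), 2.01 for Itga11 (0.0243), 1.15 for Itgb4 (0.0454) and 0.80 for Itgb1 (0.0177) among integrins. It was 1.94 for Nid1 (adjusted p = 0.0202), 1.47 for Hspg2 (0.0139), 1.21 for Lamc3 (0.0184), 1.17 for Lamb2 (0.0217), 1.15 for Nid2 (0.042), 1.11 for Lama2 (0.0139) and 0.89 for Lamc1 (0.0139) among laminins and linkers. Their causes were not tested.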

How the results depend on the processing

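No called difference of a member reversed under any alternative that was run. Among differences that passed in neither fit, 33 values under other settings and 89 without 1 library changed sign, such as the interaction of Itga4 (log2 0.52, with a range of -0.37 to 0.73). All 28 calls between regions in HPBCD held in each alternative in which the gene was tested, with adjusted p-values up to 0.0259, whereas 5 of 10 held in vehicle, 10 of 15 between treatments beside the infarct and 7 of 11 for the interaction. Members called were 9 to 14 in vehicle, 26 to 30 in HPBCD, 14 to 22 between treatments and 9 to 16 for the interaction over the other tools, scalings, filters and fits, and 0 in each of them in contralateral tissue.

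Leaving out 1 library gave 5 (without vehicle peri-infarct replicate 4) to 12 members in vehicle, 28 to 30 in HPBCD, 10 (without HPBCD peri-infarct replicate 3) to 22 (without vehicle peri-infarct replicate 3) between treatments, 0 contralaterally, and 7 (without replicate 2 of the vehicle or 3 of the HPBCD peri-infarct libraries) to 15 (without vehicle peri-infarct replicate 3) for the interaction. The cause was not tested. Over all genes, calls in vehicle were 3195 in edgeR and 5065 in limma voom, between treatments 3471 and 6012, and for the interaction 1577 in edgeR, 2514 in DESeq2 and 4110 in limma voom. Without 1 library they ran from 2000 to 3920, from 823 to 5339 and from 529 to 3121.

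With the animal as a replicate block, 9 members were called in vehicle, 28 in HPBCD and 11 for the interaction, and no other call than those given with the genes changed. The block between treatments, where the number is a name, gave 21 members, with same-number correlations averaging 0.115 beside the infarct. Counts under about 3 per library limit Itgad, Itgae, Itga2 and Itgb6.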
